A study of Homo sapiens with 6 samples.

Results

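The genes described here are those of the cytosolic ribosomal proteins (RP genes), the proteins that build the small and the large ribosomal subunit outside the mitochondria. They were chosen by symbol: RPL or RPS followed by a number, with an A, X, Y or L and a further digit allowed, plus the stalk genes RPLP0 to RPLP2 and RPSA. The choice gave 86 of the 36601 genes in the files, 34 of the small and 52 of the large subunit. The established human cell line SK-N-BE(2)-C, from a neuroblastoma, was profiled in 6 single-cell libraries with Seq-Well S3, in which single cells share small wells with barcoded beads. The libraries form 3 groups of 2 by treatment: the solvent DMSO, TSA and E6R. TSA usually stands for trichostatin A, a compound that blocks the catalytic site of histone deacetylases, and the title of the series names an inhibitor of their complex that is not enzymatic. Doses, treatment times and the structure of E6R are not given in the sources used here, and nothing in the labels says that the 2 libraries of a group came from separate cultures, so p-values measure only the spread between these libraries, which may be technical.

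A ribosome holds a copy of nearly every RP, and the proteins are made in matched amounts from scattered genes. Most RP mRNAs belong to the TOP class: they begin with a C followed by a run of pyrimidines, the terminal oligopyrimidine tract, through which mTOR and the RNA-binding protein LARP1 control their translation together. Several RP genes have a paralog, a related copy elsewhere in the genome, such as RPL22L1 beside RPL22, RPL39L beside RPL39 and RPS27L beside RPS27. In neuroblastoma, MYCN is known to drive the making of ribosomes.

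The first bases of these genes are shown because the TOP start is what most RP genes share and the selection by symbol did not use. RefSeq's promoter table for GRCh38.p14 had an entry for 69 of the 86 members. In 48 of them (69.6%), at least 1 annotated start was a C at the head of a run of 5 or more C or T, read on the gene's own strand, against 1404 of all 27305 genes in the table (5.14%). The windows below hold 30 bases before the annotated start and 12 from it, 5′ to 3′. Capitals mark the pyrimidine run at the start, and a window in lower case has no such run. The first 5 are members whose share of RP UMIs differed between treatments and the last 3 are paralogs without the run, of which RPL7L1 differed as well. Their positions are chr1:153990732-153990773 (plus strand) for RPS27, chr6:33272045-33272086 (plus) for RPS18, chr6:34426058-34426099 (minus) for RPS10, chr11:8682762-8682803 (plus) for RPL27A, chr3:170870184-170870225 (minus) for RPL22L1, chr6:42879586-42879627 (plus) for RPL7L1, chr15:63157466-63157507 (minus) for RPS27L and chr5:172958699-172958740 (plus) for RPL26L1.
RPS27: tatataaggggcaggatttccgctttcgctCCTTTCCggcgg
RPS18: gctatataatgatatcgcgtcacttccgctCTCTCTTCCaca
RPS10: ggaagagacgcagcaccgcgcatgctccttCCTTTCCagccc
RPL27A: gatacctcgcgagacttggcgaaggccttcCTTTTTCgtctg
RPL22L1: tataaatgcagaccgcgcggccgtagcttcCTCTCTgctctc
RPL7L1: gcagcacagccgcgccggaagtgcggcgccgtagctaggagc
RPS27L: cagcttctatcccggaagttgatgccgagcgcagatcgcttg
RPL26L1: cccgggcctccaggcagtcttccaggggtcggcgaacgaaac

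Barcodes with at least 500 genes and at most 20% mitochondrial UMIs (unique molecular identifiers, which count captured mRNA molecules) were kept as cells and summed per library. DMSO libraries held 1861 and 3132 such cells with 4206366 and 4793493 UMIs, and the other libraries 2467 to 3946 cells with 13318200 to 26180262 UMIs, so the controls were the shallowest. Pairs of libraries shared 11 to 58 cell barcodes, at most 2.11% of the cells of the smaller library. All 16 adrenergic neuroblastoma markers had UMIs, in sum 4307 to 7972 CPM (UMIs scaled to a common library total). Markers of blood and endothelium summed to 2.64 to 67.7 CPM and epithelial markers to 9.39 to 96.1, with no gene at 0 in all libraries. The 12 markers of mesenchymal or Schwann cells summed to 1328 and 825 CPM in the DMSO libraries, 3072 and 1903 in the TSA libraries and 2016 and 1315 in the E6R libraries. In each library most of these UMIs came from VIM, with 4597 and 3639, 37387 and 20209, and 26146 and 33014 UMIs in the same order. In the edgeR test described below, 8 of the 12 were tested. Under TSA, VIM was called higher and COL1A2, with few UMIs, lower, beside 16.2% and 13.5% of all genes. The part of these markers in the results below was not tested.

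RP genes took a larger part of the transcriptome under TSA and under E6R than under DMSO. In the summed cells, RP genes gave 7.79% and 8.46% of all UMIs in DMSO replicates 1 and 2, 9.66% and 9.76% in the TSA replicates, and 9.38% and 10.1% in the E6R replicates. All 4 treated libraries lay above both controls, and the TSA and E6R libraries overlapped each other. The DMSO mean was 8.12% ± 0.471 (SD, n = 2), the TSA mean 9.71% ± 0.068 and the E6R mean 9.74% ± 0.510. The difference from DMSO was 1.59 percentage points for TSA and 1.61 for E6R, and both had p = 0.333 in an exact two-sided permutation test, the smallest that 2 libraries against 2 allow. E6R and TSA differed by 0.024 points (exact permutation p = 1). Genes of both subunits contributed. Large-subunit genes made up 4.60% ± 0.325 of UMIs under DMSO, 5.64% ± 0.111 under TSA and 5.58% ± 0.350 under E6R, and small-subunit genes 3.53% ± 0.146, 4.07% ± 0.043 and 4.16% ± 0.160.

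Mean UMIs per cell were also higher in the treated libraries. An average cell held 176 and 129 RP UMIs in the DMSO libraries, 559 and 395 in the TSA libraries and 512 and 670 in the E6R libraries. UMIs of all other genes averaged 2084 and 1401, 5230 and 3651, and 4947 and 5965 per cell. Median UMIs per cell were 1268 and 1053.5, 1728 and 1876, and 1880 and 1124. The median of E6R replicate 2 thus lay below that of DMSO replicate 1. With every cell thinned at random to 1000 UMIs, the median share per cell was 7.80% and 8.60% in the DMSO replicates, 9.40% and 9.90% in the TSA replicates and 9.60% and 9.30% in the E6R replicates. Groups stood in the same order against DMSO at this equal depth, with differences of 1.45 points for TSA and 1.25 for E6R (exact permutation p = 0.333 for both). Cells too shallow for this, in the same order 674, 1450, 615, 503, 692 and 1718, were left out. The medians without thinning were 7.86% and 8.59%, 9.53% and 9.88%, and 9.64% and 8.87%. Cells of each library were also sorted by UMIs into 3 equal classes. In the lowest class RP genes gave 8.19% and 8.38% with DMSO, 10.07% and 10.29% with TSA and 10.09% and 8.51% with E6R. The highest class gave 7.62% and 8.45%, 9.62% and 9.60%, and 9.22% and 10.22%. In E6R replicate 2 the share rose with depth, with 9.16% in the middle class. In the lowest class that library lay just above both DMSO libraries. Single cells varied far more than counting alone gives: the SD between thinned cells of a library was 2.22 to 3.86 points, where binomial counting gives 0.854 to 0.954.

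**Figure D1:**
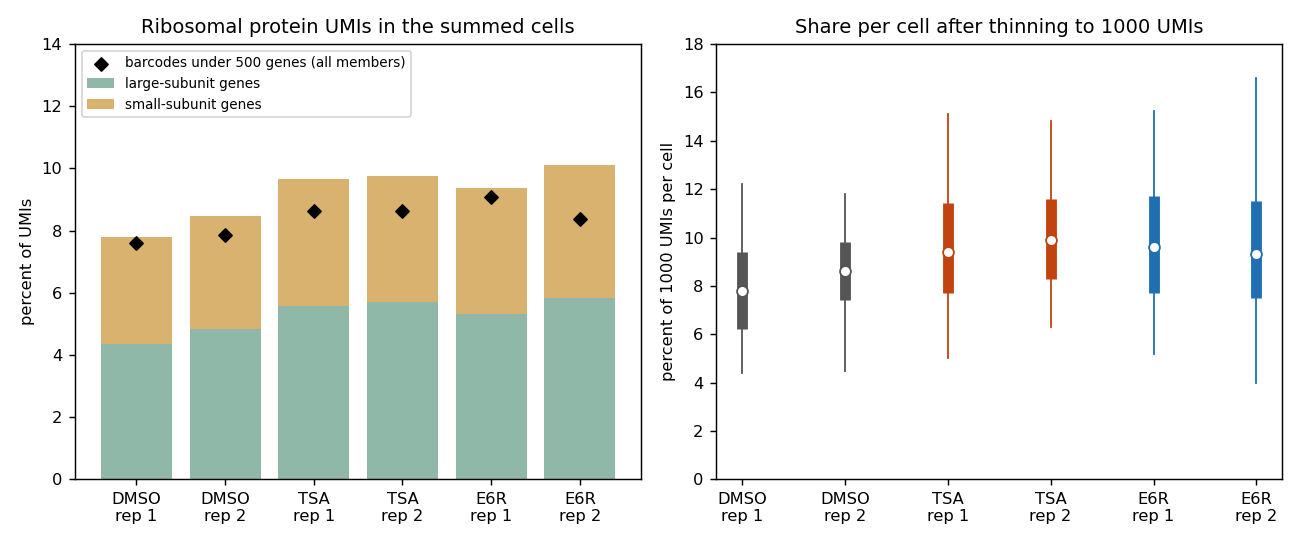
Left, percent of all UMIs from RP genes in the summed cells of each library, stacked by subunit, with diamonds for barcodes under 500 genes; right, the share per cell after thinning to 1000 UMIs (circle, median; thick bar, quartiles; thin line, 5th to 95th percentile). Both DMSO libraries sit below the 4 treated libraries in the sums (7.79% and 8.46% against 9.38% to 10.1%), while the ranges over cells overlap widely.

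The share also differed outside the kept cells. In barcodes with under 500 genes, which can hold free RNA and small or broken cells, RP genes gave 7.60% and 7.85% of UMIs with DMSO, 8.62% and 8.63% with TSA and 9.08% and 8.36% with E6R. The same separation from DMSO was therefore present there, with 0.903 points for TSA and 0.996 for E6R. Mitochondrial genes took 5.83% and 6.20% of UMIs in the DMSO cells, 6.08% and 9.71% in the TSA cells and 1.55% and 1.51% in the E6R cells, and they are part of the same total. With mitochondrial UMIs left out of the total, RP genes gave 8.27% and 9.02% with DMSO, 10.29% and 10.81% with TSA and 9.52% and 10.25% with E6R. The difference from DMSO was then 1.91 points for TSA and 1.24 for E6R, and E6R lay 0.662 points below TSA with no overlap (exact permutation p = 0.333 for each).

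Small-subunit genes supplied slightly less of the RP total under TSA. They gave 43.9% and 42.9% of RP UMIs in the DMSO libraries, 42.4% and 41.4% in the TSA libraries and 43.2% and 42.3% in the E6R libraries. Both TSA libraries lay below both DMSO libraries, by 1.51 points on average (exact permutation p = 0.333), and E6R overlapped both. Among the libraries numbered 1, and among those numbered 2, E6R stood between DMSO and TSA, but the labels do not say that the numbers pair the libraries. The unpaired difference of E6R from DMSO was -0.667 points and from TSA 0.842 points (exact permutation p = 0.667 for both). Single genes weighed on this sum in both directions. RPS2 gave 6.45% and 5.15% of RP UMIs under DMSO and 4.94% and 3.55% under TSA. RPS27 gave 0.75% and 0.80% under DMSO and 1.79% and 3.33% under TSA. Relative to the RP total, 11 of 32 small-subunit members with 20 CPM or more were fitted higher under TSA, beside 25 of 50 large-subunit ones. How far single genes made up the subunit difference was not tested.

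Gene by gene, most RP mRNAs had higher fitted levels under TSA than under DMSO, and 22 passed the test. Counts were compared with edgeR's quasi-likelihood test with TMM scaling (which sets libraries to the bulk of genes), Benjamini-Hochberg adjusted over all 16763 genes tested, at 0.05. Of the 86 members, 83 passed its filter on low counts: RPL10L, with 2 to 11 UMIs per library, and the 2 Y-linked members did not. Of the 83, 22 (26.5%) were called against 29.7% of all genes tested, a share near the background. Its side of the background changed with the setting: DESeq2 called 33 (39.8%) beside 32.3% of all genes, edgeR without the low-count filter 30 of 86 (34.9%) beside 18.7%, and edgeR over all deposited barcodes 30 (36.1%) beside 28.6%, while 16 of 82 (19.5%) were called beside 28.7% in cells thinned to 1000 UMIs. Of the 22, 20 were higher, beside 16.2% of all genes called higher and 13.5% called lower. The fitted value was above 0 in 72 of the 83, and their median log2 fold change was 0.50 against -0.01 over all genes tested.

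The 20 that rose were spread over both subunits. They included the large-subunit genes RPL4, RPL6, RPL7A, RPL14, RPL17, RPL19, RPL24, RPL26L1, RPL28, RPL29, RPL32, RPL37 and RPLP1 and the small-subunit genes RPS6, RPS15A, RPS18, RPS25, RPS27 and RPS27A, with log2 fold changes from 0.71 for RPL4 to 2.31 for RPS27. RPS6, the target of the S6 kinases below mTOR, had 951 and 1015 CPM (here and below after TMM scaling) in the DMSO libraries, 1674 and 1717 in the TSA libraries and 1617 and 1610 in the E6R libraries. Its log2 fold change was 0.79 (SE 0.19, adjusted p = 0.019) under TSA and 0.71 (SE 0.19, adjusted p = 0.205) under E6R, both by edgeR. RPLP1, a protein of the acidic stalk that recruits elongation factors, had 827 and 1011 CPM under DMSO, 1876 and 1914 under TSA and 1148 and 1104 under E6R (edgeR log2 fold change for TSA 1.04, SE 0.20, adjusted p = 0.00854). Its partners RPLP0 and RPLP2 did not pass, at 0.58 (SE 0.25) and 0.54 (SE 0.22), nor did RPL5 (0.53, SE 0.21) and RPL11 (0.41, SE 0.22), which with the 5S RNA can bind MDM2. RPL7L1 and RPL39L fell by 0.99 and 0.72.

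The number of these calls rested on few libraries. Leaving out a DMSO library lowered it to 4 (replicate 1) or 11 (replicate 2), and the share of all genes called fell as well, to at most 15.0%. Leaving out a TSA library left 9 (replicate 1) or 1 (replicate 2), beside 9.84% and 7.79% of all genes. Without E6R replicate 1 or replicate 2 there were 30, beside 33.0% and 33.6%. With total counts in place of TMM the median of all genes moved to -0.32 and that of the members to 0.20, and 9 members (10.8%) were called beside 30.3% of all genes, 7 higher and 2 lower.

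Under E6R the RP genes shifted upwards as broadly, but none was called. The fitted log2 fold change against DMSO was above 0 in 80 of 83 members, with a median of 0.44 against 0.03 over all genes. In cells thinned to 1000 UMIs the median of the members was 0.24, against 0.00 over all genes. No member passed edgeR's threshold, and 0% of all genes tested were called in this comparison. At an unadjusted p under 0.05 there were 30 of 83 members, beside 2913 of the 16763 genes tested. The lowest adjusted p among the members was 0.205. DESeq2 called 9 members, all higher (RPL7A, RPL14, RPL21, RPL29, RPL35A, RPS6, RPS7, RPS13 and RPS14), beside 2.15% of all genes, and edgeR without the filter on low counts called 21 beside 3.47%. With total counts the median of the members was 0.31 and that of all genes -0.10.

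E6R against TSA asked where the treatments differed. Here 12 of 83 members (14.5%) were called by edgeR, beside 38.2% of all genes, with 7 higher and 5 lower under E6R beside 18.7% and 19.5% of all genes. RPL7L1, RPL21, RPL22L1, RPL39L, RPS10, RPS13 and RPS26 were higher, and RPL3L, RPL28, RPLP1 and RPS27 were among the lower. The members' median was -0.11 against -0.09 over all genes, and with total counts it turned to 0.07 beside 0.09, with 11 called higher and 3 lower. Leaving out either TSA replicate gave 4 calls, beside 17.7% of all genes without replicate 1 and 14.4% without replicate 2. RPL3L had few UMIs outside the TSA libraries, so its call here is not taken as a result.

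To find single genes that left the common shift, the same test was run with the RP total as the library size, so that a fold change is a change in a gene's share of RP UMIs. Against DMSO, 6 of 83 members departed under TSA, beside 34.9% of all genes. RPS27 and RPS18 rose (beside 6.97% of all genes) and RPL7L1, RPL39L, RPS10 and RPL27A fell (beside 27.9%). The member median was -0.06 and the median of all genes -0.58, so most genes lay below the RP set on this scale. The middle 50% of the 83 fitted values lay between -0.34 and 0.26. Without TSA replicate 1 there were 3 departures beside 14.4% of all genes, and without TSA replicate 2 there were 2 beside 8.34%. There were 11 without E6R replicate 1 and 10 without E6R replicate 2, beside 37.6% and 37.7%.

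**Figure D2:**
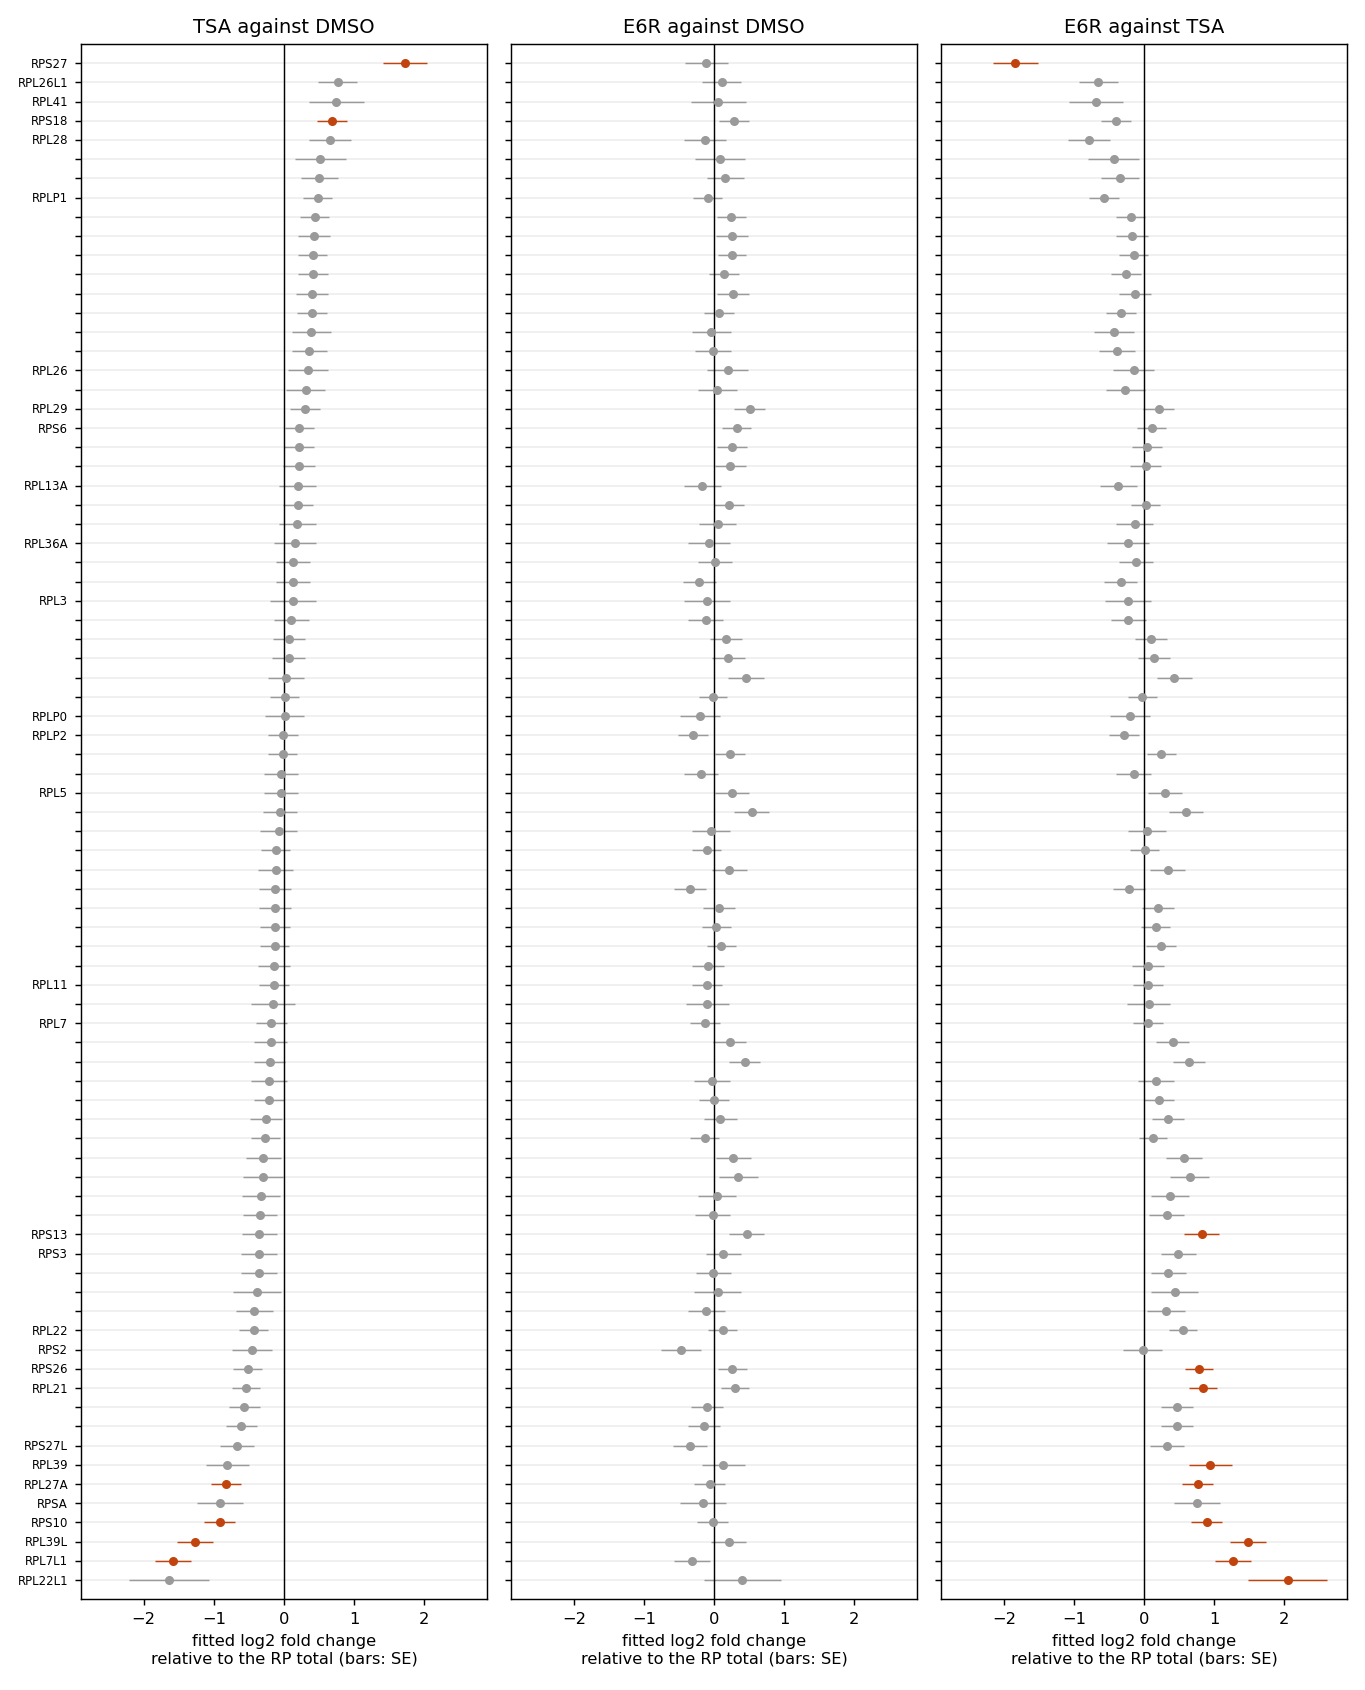
Fitted log2 fold change of 80 of the 82 members with at least 20 CPM on average, relative to the RP total, in the 3 comparisons (points, edgeR estimate; bars, SE; orange, adjusted p under 0.05), ordered by TSA against DMSO, with names for 31 of them. Most points sit within 0.5 of 0; RPS27 stands at the top under TSA with 1.73, RPL7L1, RPL39L, RPS10 and RPL27A stand low, and no point is orange for E6R against DMSO.

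RPS27 (ENSG00000177954, chr1:153990755-153992155, plus strand, protein coding), a zinc-finger protein of the small subunit, had the highest fitted departure under TSA. It gave 0.75% and 0.80% of RP UMIs in the DMSO libraries, 1.79% and 3.33% in the TSA libraries and 0.64% and 0.79% in the E6R libraries. Both TSA libraries lay above the other 4, but they differed between themselves by more than the lower of them exceeded DMSO. Relative to the RP total the log2 fold change was 1.73 (SE 0.32, edgeR adjusted p = 0.00514) against DMSO, and E6R against TSA gave -1.84 (SE 0.32, edgeR adjusted p = 0.00343). In CPM it stood at 519 and 619, 1876 and 3759, and 597 and 786. It was called in all 17 alternatives of each of these comparisons, with an adjusted p of 4.81e-09 to 0.0457 against DMSO.

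The 3′ end of RPS27 is not unique in the genome. Of the 50-base stretches in the last 300 bases of its transcript, 75.3% also occur in 12 other annotated genes, all pseudogenes, and the rule by which the authors' counting treated such reads is not given in the sources used here. Its paralog RPS27L (ENSG00000185088, chr15:63125872-63158021, minus strand, overlapping LACTB on the other strand), an inducible target of p53, has no such shared stretch. RPS27L gave 0.057% and 0.062% of RP UMIs under DMSO, 0.043% and 0.032% under TSA and 0.044% and 0.050% under E6R, which relative to the RP total was a log2 fold change of -0.67 (SE 0.24, edgeR adjusted p = 0.0617) for TSA. The paralog thus did not follow RPS27: there were 75.6 and 78.0 RPS27L UMIs per 1000 RPS27 UMIs in the DMSO libraries, 23.8 and 9.66 in the TSA libraries, and 68.8 and 62.8 in the E6R libraries.

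RPS18 (ENSG00000231500, chr6:33272010-33276510, plus strand, overlapping VPS52 on the other strand), which sits in the head of the small subunit, rose less. Its share of RP UMIs was 0.91% and 1.05% under DMSO, 1.48% and 1.68% under TSA and 1.17% and 1.22% under E6R. The 3 groups did not overlap, and the log2 fold change relative to the RP total was 0.69 (SE 0.22, edgeR adjusted p = 0.0386) for TSA and 0.29 (SE 0.21, edgeR adjusted p = 0.479) for E6R. The TSA call was lost without any of the DMSO or TSA libraries, with an adjusted p of up to 0.205. Of its 3′ stretches, 60.6% are shared with 3 pseudogenes.

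RPL7L1 (ENSG00000146223, chr6:42879618-42889925, plus strand), a relative of RPL7 that resembles a yeast factor for assembly of the large subunit, had the lowest fitted departure among the called genes. It gave 0.64% and 0.42% of RP UMIs under DMSO, 0.18% and 0.18% under TSA and 0.40% and 0.45% under E6R. TSA lay below the other 4 libraries, and E6R overlapped DMSO. The log2 fold change relative to the RP total was -1.58 (SE 0.26, edgeR adjusted p = 0.00334) for TSA against DMSO, called in all 17 alternatives. For E6R against TSA it was 1.26 (SE 0.26, edgeR adjusted p = 0.00657), lost only without TSA replicate 2 (0.0617). RPL7 itself stayed near the RP total at -0.18 (SE 0.22), so that RPL7L1 UMIs per 1000 RPL7 UMIs were 577 and 429 under DMSO, 182 and 205 under TSA and 396 and 501 under E6R.

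RPL39L (ENSG00000163923, chr3:187120948-187180908, minus strand), a paralog known mainly from the testis, and its parent RPL39 both lay low under TSA. RPL39L gave 0.099% and 0.109% of RP UMIs under DMSO, 0.052% and 0.034% under TSA and 0.123% and 0.117% under E6R. The 3 groups did not overlap. Relative to the RP total it fell by 1.27 on the log2 scale under TSA (SE 0.25, edgeR adjusted p = 0.00717, and 0.0721 without TSA replicate 2). E6R against TSA gave 1.48 (SE 0.25, edgeR adjusted p = 0.00329). For RPL39 the shares were 0.51% and 0.62%, 0.36% and 0.29%, and 0.44% and 0.79%, with a log2 fold change of -0.81 (SE 0.31, edgeR adjusted p = 0.0706) for TSA and 0.94 (SE 0.31, edgeR adjusted p = 0.0418) for E6R against TSA. The latter call was lost in 7 of 17 alternatives, with an adjusted p of up to 0.253.

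RPS10 and RPL27A were the remaining departures under TSA. RPS10 (ENSG00000124614, chr6:34417454-34426125, minus strand, overlapping the read-through gene RPS10-NUDT3), a protein of the small-subunit head that is ubiquitinated by ZNF598 on stalled ribosomes, gave 0.59% and 0.64% of RP UMIs under DMSO, 0.35% and 0.30% under TSA and 0.54% and 0.67% under E6R. TSA lay apart below the other libraries. It fell by 0.91 under TSA (SE 0.22, edgeR adjusted p = 0.0151). RPL27A (ENSG00000166441, chr11:8682411-8714759, plus strand, overlapping ST5 and TRIM66 on the other strand) gave 0.96% and 0.99%, 0.61% and 0.49%, and 0.88% and 0.99%, and fell by 0.83 under TSA (SE 0.22, edgeR adjusted p = 0.0218). Neither was called on the TMM scale, where their log2 fold changes were -0.35 (SE 0.22) and -0.27 (SE 0.21): their CPM stayed close to DMSO while most RP genes were fitted higher. The RPS10 call was lost without DMSO replicate 2 and without either TSA replicate (adjusted p up to 0.127), and the RPL27A call without any of the 4 libraries compared (up to 0.170).

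**Figure D3:**
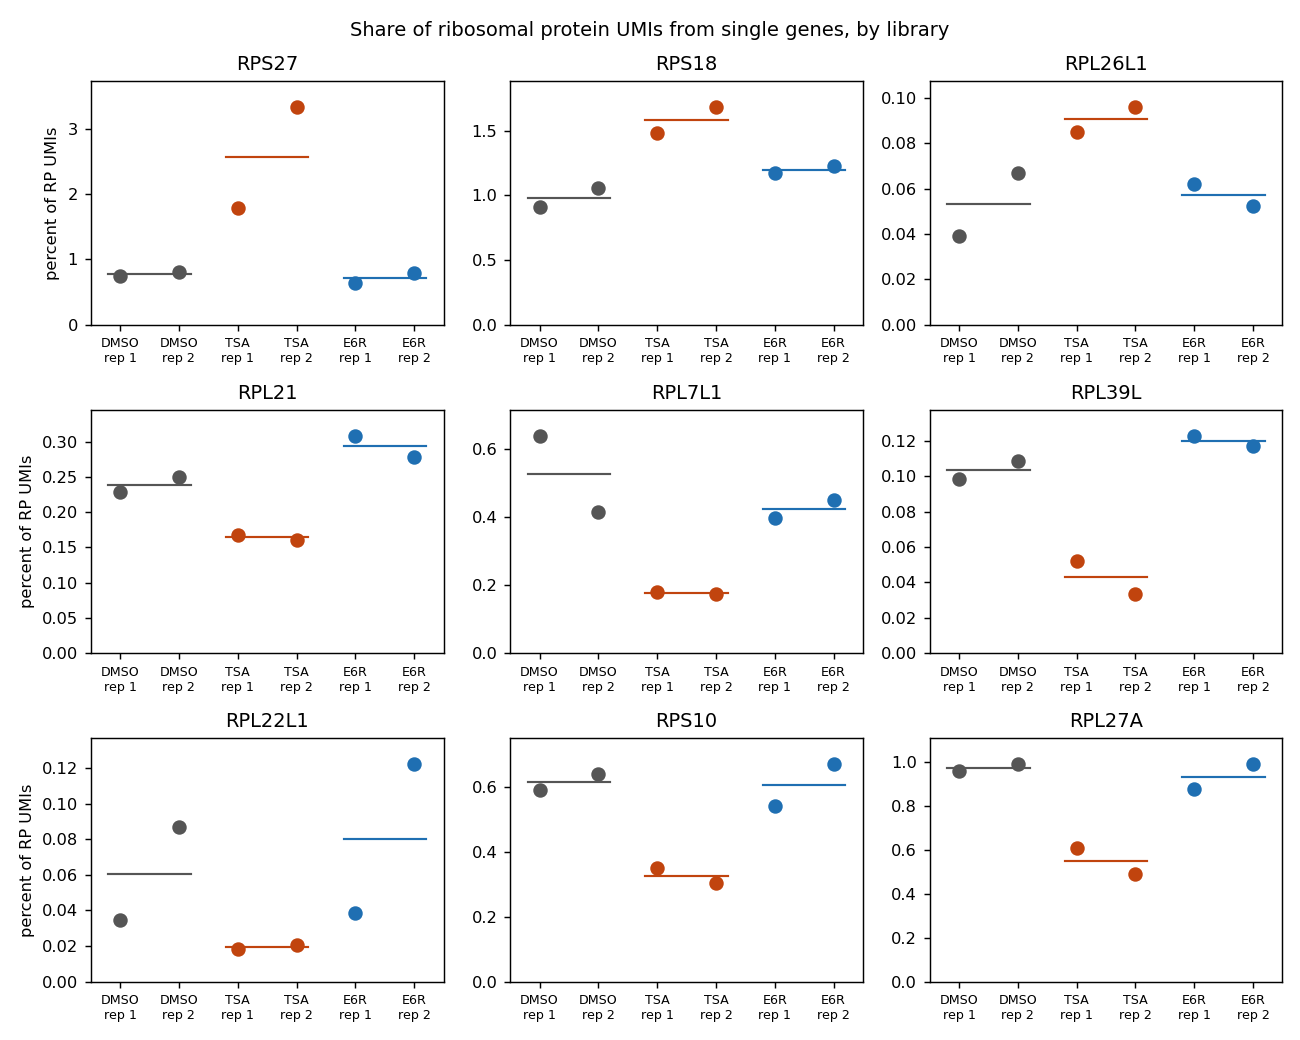
Percent of RP UMIs from 9 members in each library (points, libraries; lines, group means). RPS27 and RPS18 are highest in the TSA libraries (1.79% and 3.33% for RPS27), RPL7L1, RPL39L, RPS10 and RPL27A are lowest there, RPL21 is lowest under TSA and highest under E6R, and the RPL22L1 values of DMSO and E6R differ between replicates.

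Against DMSO, E6R moved no member away from the RP total by edgeR, beside 0% of all genes. At an unadjusted p under 0.05 there were 3 of 83 members, beside 3657 of the 16763 genes tested. RPL29 and RPL3L were among these members and are named because the count is small. The lowest adjusted p was 0.117. DESeq2 called 0 and edgeR without the filter on low counts called 1, beside 4.09% and 5.45% of all genes. That 1 was RPL3L, which is at the edge of detection. The middle 50% of members lay between -0.10 and 0.22, a narrower range than under TSA, although the difference in range was not tested.

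E6R and TSA differed in more members. Relative to the RP total 13 of 83 were called, beside 37.0% of all genes. Those higher under E6R included RPS10, RPS13, RPS26, RPL21, RPL22L1, RPL27A, RPL39, RPL39L and RPL7L1 (10, beside 21.4% of all genes), and those lower included RPS27 and RPL3L (3, beside 15.6%). RPL3L had few UMIs outside the TSA libraries, so its call is not taken as a result. Without RPL3L, 12 of the 82 members with at least 20 CPM on average were called. With the scale set by the median of ratios over members, 11 were called, 6 higher and 5 lower. The count was 5 without TSA replicate 1, 3 without TSA replicate 2 and 7 without E6R replicate 2, beside 17.6%, 12.9% and 33.4% of all genes.

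Members that were higher under E6R than under TSA included RPL21, RPS26 and RPS13. RPL21, of the large subunit, had 0.228% and 0.250% of RP UMIs under DMSO, 0.168% and 0.161% under TSA and 0.309% and 0.278% under E6R (edgeR log2 fold change for E6R against TSA 0.84, SE 0.20, adjusted p = 0.0134). RPS26, which lines the mRNA exit, had 0.213% and 0.234%, 0.159% and 0.154%, and 0.249% and 0.287% (0.78, SE 0.20, edgeR adjusted p = 0.0186). RPS13, of the small subunit, had 0.508% and 0.473%, 0.457% and 0.313%, and 0.740% and 0.617% (0.82, SE 0.25, edgeR adjusted p = 0.033). For RPL21, RPS26 and RPS13 the 3 groups did not overlap, with TSA lowest and E6R highest. The RPL21 call was lost without either TSA replicate and without E6R replicate 1 (adjusted p up to 0.103).

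Paralogs outside RPL7L1, RPL39L and RPS27L behaved differently from each other. RPL26L1 (ENSG00000037241, chr5:172958729-172969771, plus strand, overlapping AC008429.1 on the other strand) rose on the TMM scale under TSA, from 27.1 and 51.9 CPM to 89.0 and 108 (edgeR log2 fold change 1.32, SE 0.30, adjusted p = 0.0152), and had 58.1 and 52.2 CPM under E6R. Its parent RPL26 gave 0.90 (SE 0.32, edgeR adjusted p = 0.0692). RPL26L1 UMIs per 1000 RPL26 UMIs were 83.9 and 103 under DMSO, 131 and 125 under TSA and 127 and 66.9 under E6R. Of the 3′ stretches of RPL26L1, 60.2% also occur in 1 pseudogene.

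RPL22L1 (ENSG00000163584, chr3:170864875-170870483, minus strand) varied strongly between the replicates of DMSO and of E6R. Its UMIs were 113 and 352 in the DMSO libraries, 255 and 267 in the TSA libraries and 570 and 3230 in the E6R libraries, or 0.035% and 0.087%, 0.019% and 0.021%, and 0.039% and 0.122% of RP UMIs. TSA lay below the other libraries, and DMSO and E6R overlapped. Relative to the RP total the edgeR log2 fold change was -1.64 (SE 0.57, adjusted p = 0.0544) for TSA and 2.04 (SE 0.57, adjusted p = 0.0232) for E6R against TSA, which became 0.98 with an adjusted p of 0.108 without E6R replicate 2. RPL22 gave -0.43 (SE 0.20) and 0.55 (SE 0.20) in these comparisons, with edgeR adjusted p of 0.126 and 0.0613.

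RPL3L, the RPL3 paralog of heart and skeletal muscle, was at the edge of detection. It had 5 and 9 UMIs in the DMSO libraries, 58 and 94 in the TSA libraries and 1 and 10 in the E6R libraries. The TSA libraries stood above the rest, with 1.39 ± 0.465 CPM for DMSO, 6.28 ± 2.67 for TSA and 0.219 ± 0.221 for E6R (SD, n = 2). Its calls, which the counts of called members include, rest on few UMIs outside the TSA libraries. They are therefore not taken as a result.

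RPS27, RPL7L1 and RPL39L departed at each depth of cell. The cells of each library were sorted by UMIs into 3 equal classes, beside the barcodes under 500 genes. RPS27 stayed between 0.584% and 0.830% of RP UMIs over all classes of the DMSO and E6R libraries, between 1.47% and 1.81% in TSA replicate 1 and between 3.22% and 3.69% in TSA replicate 2. RPL7L1 lay between 0.154% and 0.187% in all classes of the TSA libraries and between 0.358% and 0.688% elsewhere. RPL39L lay between 0.0331% and 0.0631% in the TSA classes and between 0.0953% and 0.138% in the others. For RPS27, RPL7L1 and RPL39L, no class of a TSA library overlapped a class of another treatment, and the same held in the barcodes under 500 genes. The genes were chosen from the sums of these same libraries, so the classes are no independent support.

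**Figure D4:**
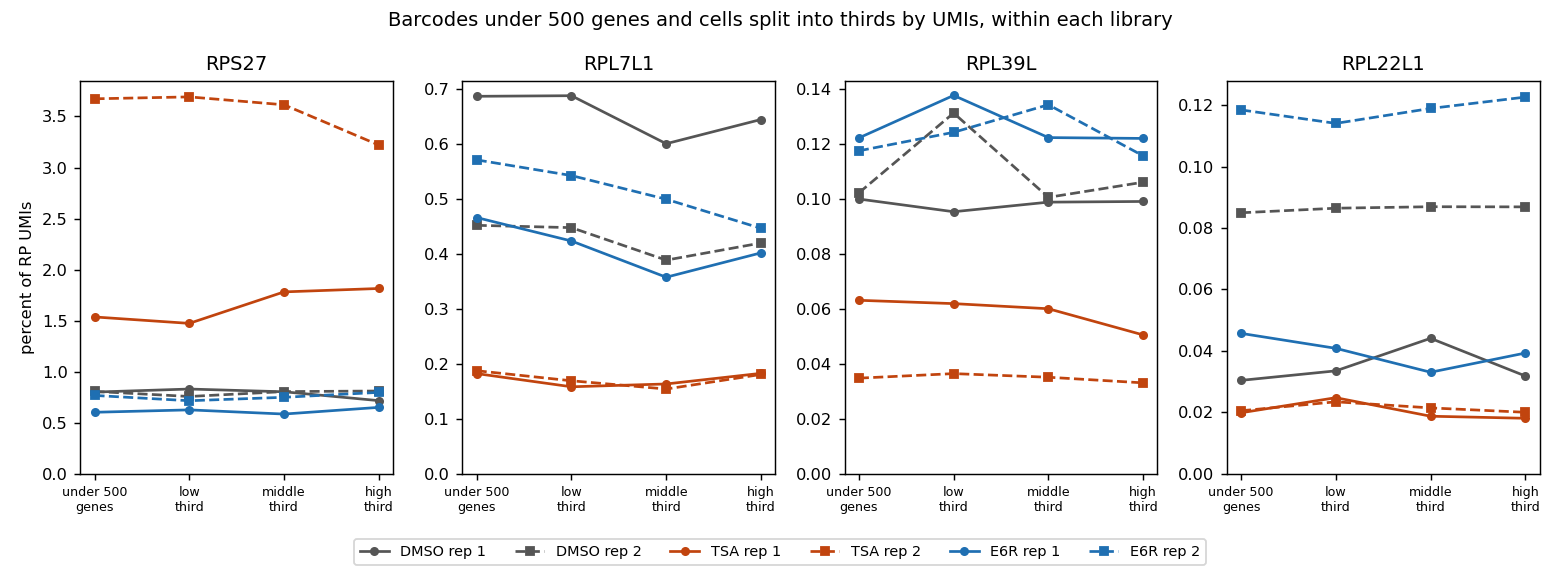
Percent of RP UMIs from RPS27, RPL7L1, RPL39L and RPL22L1 in barcodes under 500 genes and in 3 equal classes of cells by UMIs within each library (colour, treatment; solid, replicate 1; dashed, replicate 2). The TSA lines lie apart from the rest in each class, at 1.47% or more for RPS27, while the 2 TSA replicates of RPS27 keep their distance from each other.

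What the departing genes share was looked at in their sequence. Among the 82 members at 20 CPM or more, 47 had a TOP start, 19 had an entry without one and 16 had no entry. These sets depend on the exact annotated base. An annotated start of RPL19 lies inside a run of C and T and not at its head, so RPL19 counts as without a TOP start. Under TSA, 4 of the 47, 1 of the 19 and 1 of the 16 departed from the RP total, beside 34.9% of all genes. The medians of the 3 sets were 0.01, -0.12 and -0.13. For E6R against TSA 7, 2 and 3 departed, beside 37.0% of all genes. RPS27, RPS18, RPS10 and RPL27A, which moved in both directions under TSA, all begin with the tract shown above, as does RPL22L1, while RPL7L1 does not. Stretches shared with other genes at the 3′ end were common: 42 of the 86 members had 10% or more of their last 50-base stretches in another annotated gene and 33 had none. Of the 42 such members, 3 departed under TSA, and 3 of the 40 under 10% did, beside the same 34.9% of all genes.

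Replicates differed in a way that followed the length of the coding sequence. The share of RP UMIs in replicate 2 over that in replicate 1, as a log2 ratio, had a median of 0.28 for DMSO, 0.09 for TSA and 0.20 for E6R over the 28 members with the shortest coding sequences (75 to 399 bases). Over the 27 with the longest (576 to 1281 bases) it was -0.20, -0.20 and -0.15. Replicate 2 was higher in all 3 treatments for 15 of the 28 short members and for 0 of the 27 long ones, and lower in all 3 for 2 and 14. Spearman's rho between this ratio and coding length across the 82 members was -0.76 (DMSO), -0.37 (TSA) and -0.50 (E6R), given as a description since the members share their libraries. RPL41, with the shortest coding sequence, gave 0.93% and 1.75% of RP UMIs under DMSO, 1.66% and 2.86% under TSA and 1.10% and 1.71% under E6R.

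The differences between treatments did not follow length in this way. Across the same members, rho between coding length and the log2 fold change relative to the RP total was -0.06 for TSA, -0.14 for E6R and 0.01 for E6R against TSA. RPLP0, whose coding sequence is among the long ones, gave 4.82% and 3.32% of RP UMIs under DMSO, 4.63% and 3.56% under TSA and 4.09% and 3.01% under E6R: replicate 2 was lower each time, and TSA against DMSO gave a log2 fold change of 0.01 (SE 0.29). RPS2 and RPSA, at 6.45% and 5.15%, 4.94% and 3.55%, and 4.91% and 3.44% for RPS2, and at 2.15% and 1.36%, 1.16% and 0.70%, and 1.78% and 1.37% for RPSA, showed replicate 2 lower as well. For RPSA, also known as the laminin receptor, the departure under TSA was -0.91 (SE 0.33, edgeR adjusted p = 0.0623).

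**Figure D5:**
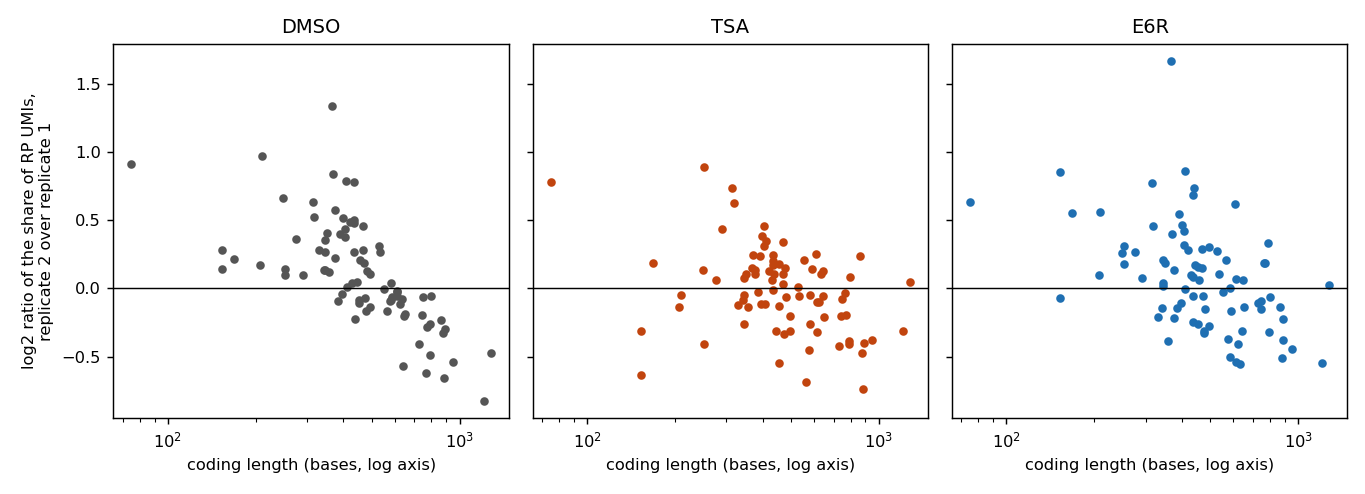
Log2 ratio of each member's share of RP UMIs in replicate 2 over replicate 1, against its coding length in bases on a log axis, for the 82 members with at least 20 CPM on average (points, genes; 1 panel per treatment). Short genes lie mostly above 0 and long genes mostly below it in each panel, with rho of -0.76, -0.37 and -0.50, and the point high above the rest for DMSO and E6R is RPL22L1.

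Other parts of the translation machinery were counted on the TMM scale beside the RP genes. FAU, which encodes RPS30 fused to a ubiquitin-like protein and lies outside the symbol rule, rose under TSA. It had 310 and 578 CPM under DMSO, 777 and 947 under TSA and 547 and 660 under E6R. The TSA libraries lay above the other 4. Its edgeR log2 fold change was 0.96 (SE 0.31, adjusted p = 0.0492), while RACK1, a scaffold on the small subunit, gave 0.05 (SE 0.21) and RPL36AL 0.34 (SE 0.29) beside 0.72 (SE 0.34) for its relative RPL36A. A further list, from general knowledge, holds 26 other TOP mRNAs of translation, FAU and RACK1 among them, whose starts were not looked up here. Of the 26, 10 (38.5%) rose and 2 (7.69%) fell under TSA, beside 16.2% and 13.5% of all genes, with a median of 0.37. With total counts that median was 0.07. EEF2, the translocase, rose from 1321 and 1309 CPM to 3161 and 3971 (edgeR log2 fold change 1.44, SE 0.22, adjusted p = 0.00342), and HNRNPA1, an RNA-binding protein of splicing, fell by 1.22 (SE 0.31, edgeR adjusted p = 0.021). Under E6R 0 of the 26 were called, 25 were fitted higher and the median was 0.50.

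Mitochondrial RP genes, whose products build the separate ribosome of mitochondria, had a median below 0 under TSA. Of 78 tested, 6 (7.69%) rose and 13 (16.7%) fell under TSA, beside 16.2% and 13.5% of all genes, with a median of -0.19, while under E6R 0 were called, 72 were fitted higher and the median was 0.40. Between E6R and TSA, 34 (43.6%) were higher under E6R and 2 (2.56%) lower, beside 18.7% and 19.5% of all genes, with a median of 0.58. MRPL15, of the mitochondrial large subunit, had 79.9 and 73.7 CPM under DMSO, 28.5 and 24.0 under TSA and 125 and 116 under E6R (edgeR log2 fold change for E6R against TSA 2.20, SE 0.20, adjusted p = 0.000447). MRPS31 moved the other way, from 19.9 and 20.8 CPM under DMSO to 62.0 and 60.4 under TSA. With total counts the list's median was -0.49 for TSA and 0.27 for E6R against DMSO. The lists as such were not tested against each other.

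Among genes that act on TOP mRNAs and on whole ribosomes, the called ones lay in both directions under TSA, as did those of all genes (16.2% higher and 13.5% lower). Of 21 genes in the control of TOP translation, MTOR, TSC2, RPS6KA1, EIF4EBP2 and LARP4B rose and LARP1 fell (28.6% called, beside 29.7% of all genes), with a median of 0.07 that was -0.24 with total counts. MTOR had 40.1 and 54.4 CPM under DMSO, 96.0 and 137 under TSA and 34.5 and 27.6 under E6R (edgeR log2 fold change for TSA 1.30, SE 0.26, adjusted p = 0.00931). EIF4EBP2, a repressor of cap-dependent translation, rose from 135 and 135 CPM to 455 and 481 and had 143 and 121 under E6R (1.80, SE 0.19, edgeR adjusted p = 0.00123). Of 28 genes of ribosome splitting, storage and quality control, 7 rose and 4 fell under TSA (39.3% called, beside 29.7% of all genes), with a median of 0.10 that was -0.20 with total counts. ZNF598, the ubiquitin ligase of collided ribosomes, rose by 1.38 (SE 0.28, edgeR adjusted p = 0.00906), and ABCE1, which splits the subunits after termination, fell by 0.87 (SE 0.20, edgeR adjusted p = 0.0156). Of 12 snoRNA host genes listed as TOP genes from general knowledge, 0 were called under TSA. Their starts were not looked up here. Compared with TSA, 5 of the 12, GAS5 among them, were higher under E6R (41.7%, beside 18.7% of all genes). None of these lists had a gene called for E6R against DMSO.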

How the data were processed

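The 6 deposited matrices of whole-number UMI counts per gene and barcode were not normalized. The authors aligned to GRCh38 with STARsolo 2.7.9a, per the submitters' processing notes. Not given in the sources used here are their annotation, strand and multi-mapping rules and barcode filter. Cells, meaning barcodes with 500 or more genes and no more than 20% mitochondrial UMIs (13 genes), were summed per library (17589 cells over 6 libraries). No doublet caller was run. Sums were tested with edgeR 4.0.16 in R 4.3.3 (quasi-likelihood, filterByExpr, group as the only term, Benjamini-Hochberg over all 16763 genes at 0.05, all 6 libraries in 1 fit), once with TMM and once with the RP total as library size. The test was run on simulated counts with known changes, where it called most of the larger ones and few of the smaller ones. SEs come from the F statistic. Shares were compared with exact two-sided permutation tests. Positions are from GENCODE 29, start windows from RefSeq, GRCh38.p14.

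Members and lists were chosen with earlier results of these data known. The lists come from general knowledge. Named members were paralogs with their parents, 9 genes whatever the result (RPLP0, RPLP1, RPLP2, RPL5, RPL11, RPS6, RPSA, RPS3 and RPL13A), and up to 6 departures in each direction per comparison with separate libraries and 20 CPM or more. The rest of the 9, RPS3 and RPL13A, gave log2 fold changes of -0.35 and 0.20 relative to the RP total for TSA. RPS2, RPL41, RPS13 and RPS26 values were added after the data were seen. Some genes that the counts include are not reported here by name. Alternatives were another scaling, DESeq2 1.42.0, no low-count filter, a replicate block, other barcode and mitochondrial limits, thinning and leaving out libraries.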

Additional observations from a re-analysis of the deposited data

How the results depend on the processing

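The RP share stayed above DMSO under TSA and E6R in each alternative, and leaving out 1 library gave differences of 1.26 to 1.92 points for TSA and 1.25 to 1.97 for E6R. For the share from small-subunit genes these ranges were -2.03 to -0.990 for TSA against DMSO, -1.18 to -0.155 for E6R against DMSO and 0.323 to 1.36 for E6R against TSA. The difference in RP share between E6R and TSA has no stable sign: it was -0.0479 points with 300 genes per barcode, -0.249 with at most 10% mitochondrial UMIs, -0.119 in thinned cells, -0.662 without mitochondrial UMIs, -0.370 as a mean over cells, and -0.337 to 0.385 without 1 library. On the TMM scale, called members for TSA against DMSO were 9 with total counts and 1 to 30 without 1 library. For E6R against DMSO they were 9 by DESeq2, 21 without the low-count filter and 0 without any 1 library. For E6R against TSA they were 20 without the low-count filter and 4 to 13 without 1 library. Departures from the RP total for TSA against DMSO were 16 by DESeq2, 11 without the low-count filter and 2 to 11 without 1 library. For E6R against DMSO there was 1 without the low-count filter and 1 in all barcodes, both RPL3L, and 0 without any 1 library. For E6R against TSA there were 3 to 13 without 1 library. The share of all genes called moved with the setting too. For E6R against TSA on the TMM scale it was 24.0% without the low-count filter. For E6R against DMSO on that scale it was 2.15% by DESeq2 and 3.47% without the filter. For departures under TSA it was 36.2% by DESeq2 and 22.0% without the filter. In the comparisons with TSA it fell when a TSA library was left out. The RPL3L calls rest on few UMIs and are no result. The causes were not tested, except that leaving out a library leaves fewer samples.

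Same-numbered libraries deviated together (correlations of 0.242 for DMSO and TSA, 0.564 for DMSO and E6R, 0.166 for TSA and E6R), but with 2 numbers that the labels do not explain they were not taken as pairs. With the replicate block, calls on the TMM scale were 41 (49.4%) for TSA against DMSO, 0 for E6R against DMSO and 25 (30.1%) for E6R against TSA, beside 36.1%, 0.113% and 45.1% of all genes. Departures were 17 (20.5%), 0 and 21 (25.3%), beside 42.0%, 0.149% and 45.0%. The first of these counts stood above its background and the other counts below theirs.

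Single named members gave 1374 values under alternatives: 1295 kept their side of the threshold, 37 lost and 42 gained a call, 0 reversed while called and 54 changed sign without a call. The setting without the largest 1% of cells was added after seeing the data. Adding pseudogene UMIs was not run, since 0 features in the files matched.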
